A study of Arabidopsis thaliana with 33 samples.

Results

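Limiting nitrogen supply was compared with ample supply in midnight leaves of Arabidopsis thaliana grown at ambient CO2. The 9 arrays were taken by their labels alone, 4 from limiting and 5 from ample nitrogen, out of 33 arrays in 8 groups. All plants were of ecotype Col-0 and grew in chambers with 10 h of light and 14 h of dark at 21 °C and 18 °C under a PPFD (photosynthetic light flux) of 250 µmol. The nutrient solution held 0.25 mM NH4NO3 (limiting) or 6 mM NH4NO3 (ample), and ambient air held 370 ppm CO2. The youngest fully expanded leaves were cut at midnight on day 35, so all 9 samples share age, tissue, light regime and CO2. The remaining groups used below are the same nitrogen treatments at midnight under elevated CO2 (750 ppm, 4 limiting and 5 ample arrays) and at midday under ambient CO2 (4 and 4). Nothing in the labels tells if a replicate is its own plant, pool or chamber, and no batch is named, so the p-values cover only the spread among these arrays.

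Plants take up nitrogen mainly as nitrate and ammonium, and nitrate is also a signal. It acts through transcription factors that switch on uptake and assimilation genes, and through nitrate-inducible repressors of the GARP family (HRS1, HHO and NIGT1 proteins) that damp starvation genes. When nitrogen runs short, leaves generally cut investment in the photosynthetic apparatus, remobilise amino acids from old proteins, and keep more carbon as starch and organic acids. At night leaves live on starch, so a midnight sample shows these programmes without light-driven assimilation.

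Each value is a log2 level above or below the median of its array, which was set to 0, and differences are limiting minus ample on the same scale. Of 12772 tested probe sets 44 passed a Benjamini-Hochberg adjusted p under 0.05 in limma (0.345%), 19 higher (0.149%) and 25 lower (0.196%) under limiting nitrogen. Of these, 14 carry the name of 1 gene, 7 higher and 7 lower, and 30 are not named in the annotation used. At an unadjusted p under 0.05 there were 1258 (9.85%). That count was 655 with only the 9 compared arrays and 929 with only the midnight arrays. The called differences ran from 0.61 to 2.53 in size, against a median standard error of 0.19. With only the 9 compared arrays, which leaves out the spread of the other groups, 3 probe sets were called. Of the 14 named genes 13 were then not called, AT1G68600 being the exception (limma adjusted p = 0.0129), with adjusted p from 0.0515 for AT5G45650 to 0.431 for AT4G34950. With only the midnight arrays 8 of the 14 were called. Leaving out 1 array gave 15 calls without limiting replicate 4, 17 without replicate 3 and 21 without replicate 1 of that group, and 29 without ample replicate 5. In 43 of the 44 the limiting arrays did not overlap the ample arrays, a separation found in 324 of all probe sets (2.54%; 128 or 1% with limiting higher and 196 or 1.53% with limiting lower). The 44 were taken for their small p in the same arrays, which favours separation. Their lack of overlap is therefore no evidence beyond those p-values. In bulk leaf RNA, fewer cells of a type and less RNA per cell cannot be told apart.

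Ample replicate 4 stood apart. The log2 ratio of 3′ over 5′ control signals, averaged for 6 pairs of probe sets, was 4.41 in it, and the other 32 arrays of the series lay between 1.46 and 2.35. It was the highest or lowest of the 9 arrays in 56.5% of probe sets, against 9.81% to 26.8% for each of the others. The mean 3′ to 5′ ratio was 2.54 ± 1.07 (SD, n = 5) at ample and 2.11 ± 0.24 (SD, n = 4) at limiting nitrogen (exact permutation test, two-sided, p = 0.69). Ample replicate 4 largely sets this difference, so that test says little about the other arrays. Without ample replicate 4 the ample mean was 2.08 ± 0.30 (SD, n = 4), a difference of 0.035 (exact permutation test, two-sided, p = 0.857). Without this array 36 probe sets were called (0.282%), 16 higher and 20 lower, of which 29 were among the 44. Of the 14 named genes, AT3G43670 and AT4G34950 were then no longer called, and AT5G45410 (log2 difference -0.71, limma adjusted p = 0.0465) and AT4G34560 (-0.79, adjusted p = 0.0497) were gained. Values with and without it are given below for each of the 14 called genes, and for other genes where stated. All other differences include it.

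**Figure D1:**
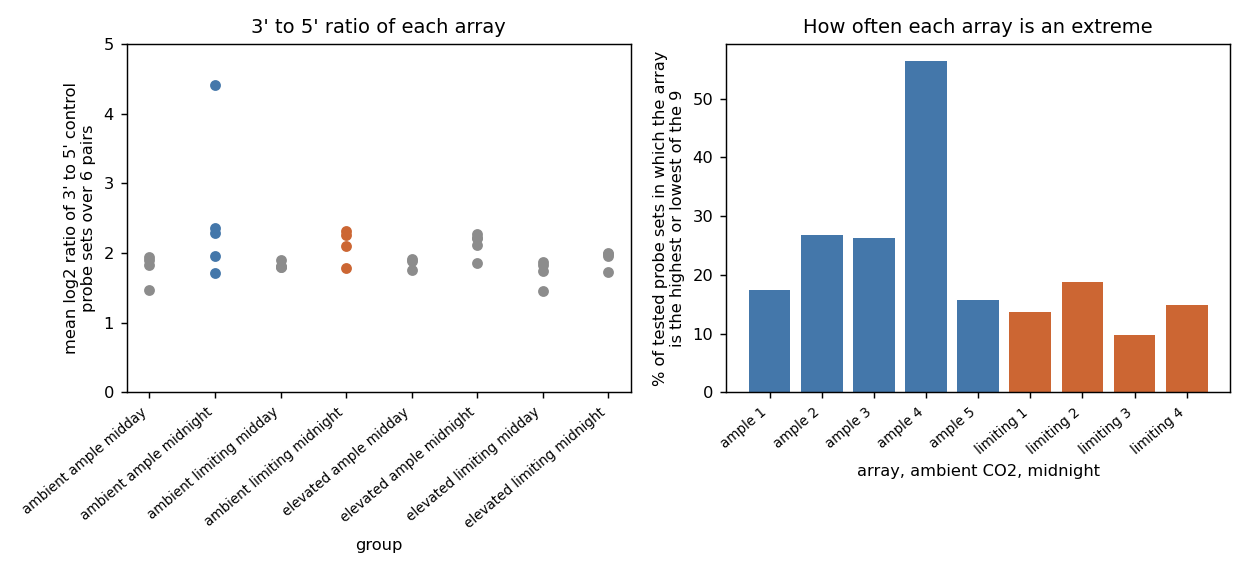
Left, the mean log2 ratio of 3′ over 5′ control signals in each of the 33 arrays by group; right, the share (%) of probe sets in which each of the 9 midnight arrays at ambient CO2 was the highest or lowest. Ample replicate 4, at 4.41 and 56.5%, lies above all others in both panels.

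The leaf label was checked against marker genes. RCA, the Rubisco activase of mesophyll chloroplasts, lay between 5.63 and 6.33 in all 9 arrays. SBPASE, a Calvin-Benson cycle enzyme, lay between 4.55 and 6.16, and PSAN, a photosystem I subunit, between 4.25 and 5.18. FMA (FAMA), a guard cell regulator, lay between -2.08 and -1.02, and SWEET11, a phloem-associated sucrose exporter, between 3.77 and 4.67. None of these 5 differed past the threshold between the nitrogen groups. The nearest was PSAN (-0.47, unadjusted p = 0.000874, limma adjusted p = 0.134), with every limiting array below every ample array. The lists of root, flower, xylem and epidermis markers had 0 members among the named probe sets, so the check has no marker of tissue outside the leaf.

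The largest response belonged to a membrane transporter. AT1G68600, a member of the aluminium-activated malate transporter family of plant anion channels, read -1.03, 0.19, -0.70, 0.50 and -0.62 in ample replicates 1 to 5. It read 2.28, 1.73, 2.32 and 2.46 in limiting replicates 1 to 4. Every limiting array lay more than 1 log2 unit above the highest ample array, which was replicate 4. The difference was 2.53 (SE 0.34, 5.76-fold, limma adjusted p = 0.000303), and 2.73 without ample replicate 4 (adjusted p = 0.000101). It remained called without each of the 9 arrays in turn.

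AT5G26200, a carrier of the mitochondrial substrate carrier family, went the opposite way. It read 0.12, 0.43, -0.95, 0.27 and 0.04 at ample and -1.29, -1.72, -1.34 and -1.17 at limiting nitrogen. Ample replicate 3 lay close to the limiting arrays, and the groups still did not overlap. The difference was -1.36 (SE 0.27, limma adjusted p = 0.0115), and -1.29 without ample replicate 4 (adjusted p = 0.0373). The call was lost without limiting replicate 2 (adjusted p = 0.053), and with only the compared arrays (0.151) or only the midnight arrays (0.0673).

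AT4G34950, a nodulin-like protein of the major facilitator transporters, read 3.57, 2.87, 3.37, 2.40 and 3.23 at ample and 4.05, 4.00, 3.77 and 3.81 at limiting nitrogen. The lowest value was that of ample replicate 4, and the gap between the groups was narrow. The difference was 0.82 (SE 0.19, limma adjusted p = 0.0412), and without that array it was 0.65 (adjusted p = 0.124). The call was also lost without limiting replicate 1, 2, 3 or 4 or ample replicate 2 or 5 (adjusted p from 0.0569 to 0.145), and with only the compared arrays (0.431) or only the midnight arrays (0.0695).

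Among genes of nitrate signalling, 4 of 29 listed were measured, 1 was called lower and 3 lay below 0 (median -0.72). Over all tested probe sets the median was -0.02, 6782 of 12772 lay below 0 and 0.196% were called lower. Without ample replicate 4 the list median was -0.60. The called gene was AT4G37180, a GARP transcription factor of the HHO group. It read -0.11, 0.02, 0.03, -0.05 and -0.34 at ample and -1.70, -0.90, -1.12 and -1.49 at limiting nitrogen. The ample arrays lay within 0.4 of each other, and all limiting arrays lay below them. The difference was -1.21 (SE 0.21, limma adjusted p = 0.00451), and -1.20 without ample replicate 4 (adjusted p = 0.0108). It stayed called without each array in turn, and was not called with only the compared arrays (adjusted p = 0.0592).

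The other measured GARP genes of this list, AT1G68670 and AT1G25550, also had limiting arrays entirely below the ample arrays and were not called. GARP genes outside the list were not looked up. Over all tested probe sets 1.53% were separated in this direction. AT1G68670 (HHO2) read 1.23, 1.46, 1.05, 1.83 and 0.99 at ample and 0.43, 0.54, 0.71 and 0.59 at limiting nitrogen. Its difference was -0.74 (limma adjusted p = 0.126), and -0.61 without ample replicate 4, its highest array. AT1G25550 (HHO3) read 2.46, 2.38, 2.17, 2.96 and 2.57 against 1.66, 1.80, 1.92 and 1.84, a difference of -0.70 (limma adjusted p = 0.202). It was -0.59 without ample replicate 4, again the highest. AT3G60320 (NRG2, a positive regulator of nitrate responses) overlapped between the groups, with a difference of 0.17. AT2G26690 (NPF6.2, a nitrate transporter of the petiole) was the only member of the nitrate, ammonium and urea transporter list measured and read -0.28. The nitrogen assimilation list had 2 measured members, cICDH, the cytosolic isocitrate dehydrogenase, at -0.30 and URE, the urease, at -0.20, and neither passed the test. Without ample replicate 4 cICDH had -0.12 and AT3G60320 0.41.

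**Figure D2:**
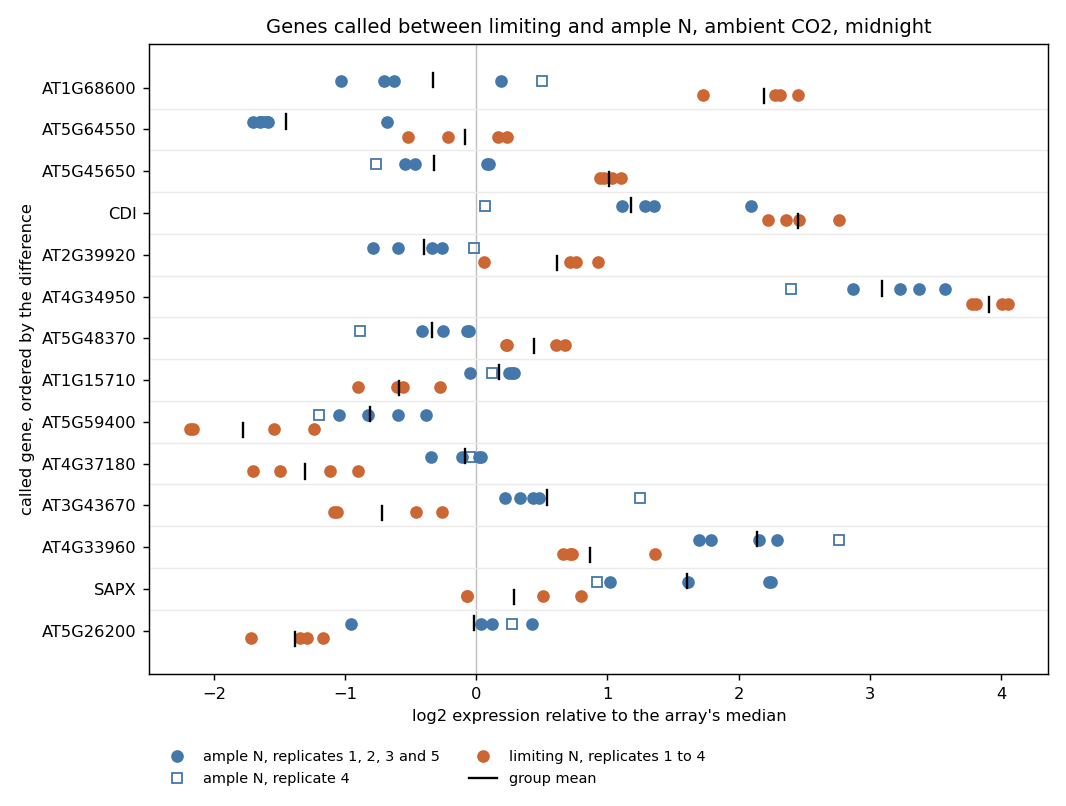
The 14 named genes called between limiting and ample nitrogen, with log2 expression relative to the array's median on the horizontal axis, 1 point per array, and short black lines at the group means; the open square is ample replicate 4. No limiting array overlaps an ample array in any of the 14, which were taken for their small p in these same arrays.

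SAPX, the stromal ascorbate peroxidase that removes hydrogen peroxide, read 2.23, 1.02, 2.25, 0.92 and 1.61 at ample and 0.51, 0.80, -0.07 and -0.07 at limiting nitrogen. The ample arrays were spread widely, and the lowest of them (replicate 4) lay just above the highest limiting array. The difference was -1.32 (SE 0.24, limma adjusted p = 0.00838), and -1.49 without ample replicate 4 (adjusted p = 0.00256). The call was lost without limiting replicate 3 (adjusted p = 0.0514) or 4 (0.0707), and with only the compared arrays (0.288) or only the midnight arrays (0.0549). Of 28 listed antioxidant enzymes 5 were measured, all below 0 (median -0.15, and -0.03 without ample replicate 4), and 1 of them, SAPX, was called. Among all tested probe sets 6782 of 12772 lay below 0 and 0.196% were called lower. The thylakoid counterpart TAPX had a difference of -0.10 and the glutathione reductases GR and GR1 had -0.27 and -0.15. Without ample replicate 4 these were -0.02, -0.19 and -0.03.

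AT1G15710, an arogenate dehydrogenase family gene of tyrosine synthesis, read 0.25, -0.05, 0.27, 0.12 and 0.29 at ample and -0.61, -0.28, -0.56 and -0.90 at limiting nitrogen. The difference was -0.76 (SE 0.15, limma adjusted p = 0.0149), and -0.78 without ample replicate 4 (adjusted p = 0.0252). The call was lost without limiting replicate 1, 3 or 4 (adjusted p = 0.0545, 0.0514 and 0.117), and with only the compared arrays (0.202). The groups did not overlap.

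AT3G43670, a copper amine oxidase, which oxidises polyamines, read 0.34, 0.21, 0.43, 1.25 and 0.47 at ample and -0.26, -0.46, -1.09 and -1.06 at limiting nitrogen. Ample replicate 4 was far above the other ample arrays. The difference was -1.26 (SE 0.27, limma adjusted p = 0.0227), and -1.08 without that array, which ended the call (adjusted p = 0.0759). So did leaving out limiting replicate 3 (adjusted p = 0.144) or 4 (0.138), or fitting only the compared arrays (0.183).

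AT5G45650, a subtilase (a serine protease), read -0.55, 0.08, 0.10, -0.77 and -0.47 at ample and 1.10, 0.97, 0.94 and 1.04 at limiting nitrogen. The limiting arrays lay within 0.2 of each other, well above all ample arrays. The difference was 1.33 (SE 0.21, limma adjusted p = 0.00224), 1.22 without ample replicate 4 (adjusted p = 0.00652), and the call held without each array in turn but not with only the compared arrays (adjusted p = 0.0515).

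AT2G39920, an acid phosphatase of the HAD family, read -0.34, -0.60, -0.78, -0.02 and -0.26 at ample and 0.76, 0.06, 0.71 and 0.93 at limiting nitrogen. The difference was 1.01 (SE 0.23, limma adjusted p = 0.0412), and 1.11 without ample replicate 4 (adjusted p = 0.0373). Limiting replicate 2 lay only just above ample replicate 4. The call was kept in 2 of the 9 fits that each left out 1 array, and was lost without any limiting array except replicate 2 and without ample replicate 1, 2, 3 or 5 (adjusted p up to 0.206). It was also lost with only the compared arrays (0.197) or only the midnight arrays (0.0571).

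AT5G48370, a thioesterase family gene, read -0.26, -0.06, -0.07, -0.88 and -0.41 at ample and 0.67, 0.24, 0.23 and 0.61 at limiting nitrogen. Its difference was 0.77 (SE 0.15, limma adjusted p = 0.0124), and 0.64 without ample replicate 4, its lowest array (adjusted p = 0.0373). The call was lost without limiting replicate 1 (adjusted p = 0.0805) or 4 (0.0889), and with only the compared arrays (0.386) or only the midnight arrays (0.0618).

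The remaining called genes have no role stated here. CDI, named cadmium-induced in the gene table, read 1.11, 1.28, 2.10, 0.07 and 1.35 at ample and 2.36, 2.23, 2.46 and 2.77 at limiting nitrogen. Its lowest array was ample replicate 4. The difference was 1.27 (SE 0.25, limma adjusted p = 0.0113), 0.99 without that array (adjusted p = 0.0252), and the call was lost without limiting replicate 4 (adjusted p = 0.0835). It was also lost with only the compared arrays (0.338) or only the midnight arrays (0.0916).

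AT5G64550 read -1.59, -1.65, -0.68, -1.62 and -1.70 at ample and 0.16, 0.23, -0.52 and -0.21 at limiting nitrogen. Ample replicate 3 stood about 1 log2 unit above the rest of its group. The difference was 1.36 (SE 0.25, limma adjusted p = 0.00838), and 1.32 without ample replicate 4 (adjusted p = 0.024). It stayed called without each array in turn, and was not called with only the compared arrays (adjusted p = 0.112).

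AT4G33960 read 1.79, 2.15, 1.70, 2.76 and 2.29 at ample and 0.73, 0.71, 0.66 and 1.36 at limiting nitrogen. Limiting replicate 4 was the highest of its group and still below every ample array. The difference was -1.27 (SE 0.24, limma adjusted p = 0.0101), -1.12 without ample replicate 4 (adjusted p = 0.0373), and the call was lost without limiting replicate 3 (adjusted p = 0.0514) and with only the compared arrays (0.145).

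AT5G59400 read -0.60, -0.83, -1.05, -1.20 and -0.38 at ample and -1.54, -1.24, -2.18 and -2.16 at limiting nitrogen. Limiting replicate 2 lay just below ample replicate 4. The difference was -0.97 (SE 0.22, limma adjusted p = 0.0362), and -1.07 without ample replicate 4 (adjusted p = 0.0252). The call was lost without limiting replicate 1, 3 or 4 or ample replicate 1, 2 or 5 (adjusted p from 0.0538 to 0.207), and with only the compared arrays (0.338).

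Of the 30 called probe sets without a gene name, 12 were higher and 18 lower. The smallest p-values among those higher were those of 250248_at (1.502, limma adjusted p = 0.00031) and 264809_at (1.38, adjusted p = 0.00428). Probe set 250248_at read 1.13, 1.22, 2.00, 1.23 and 1.37 at ample and 3.25, 2.46, 2.74 and 3.11 at limiting nitrogen. Lower were 263831_at (-1.72, adjusted p = 0.00225) and 253043_at (-1.40, adjusted p = 0.00225). Probe set 263831_at read 0.79, 0.80, 0.74, 0.53 and 0.70 at ample and -0.93, -0.76, -1.44 and -0.89 at limiting nitrogen. All 4 kept their call without ample replicate 4 (adjusted p from 0.00128 to 0.0121).

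The 26 named genes with the next smallest p, none of them called, had limma adjusted p from 0.055 to 0.145. Among these, genes with a known role and a positive difference were GAMMA-VPE, a vacuolar processing protease that rises in senescing leaves (1.12), and AT1G67360, a lipid droplet-associated protein (1.02). GAMMA-VPE read 3.16, 3.19, 3.08 and 3.20 in the limiting arrays and 1.68, 3.08, 1.51, 1.65 and 2.26 in the ample arrays, so ample replicate 2 almost reached them. APL3, a large subunit of ADP-glucose pyrophosphorylase in starch synthesis, had 0.87 (adjusted p = 0.134). It read -1.05, -1.54, -0.53, -0.94 and -1.24 at ample and 0.13, -0.31, -0.51 and -0.06 at limiting nitrogen, with no overlap. PYE, a transcription factor of the iron deficiency response, had 0.77, and TCP15, a growth-regulating transcription factor, had 0.82. Without ample replicate 4, the lowest array for both, PYE had 0.61 and TCP15 0.59. The further positive differences belonged to AT5G53420, a CCT-motif protein (1.13), AT1G23030, a U-box ubiquitin ligase (0.92), AT2G36630, of the TauE/SafE exporter family (0.87), and to AT3G20300 (0.91) and AT2G30530 (0.54).

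Negative differences in the same group belonged to AT3G62930, a CC-type glutaredoxin (-1.38), AT5G19120, an aspartyl protease family gene (-1.35), and AT3G01490, a protein kinase (-0.94). AT5G51010, a rubredoxin-like gene, had -0.77, AT3G18680, a plastid UMP kinase, had -0.58, and PSAN, a subunit of photosystem I, had -0.47. For PSAN the limiting arrays (4.25 to 4.36) lay below the ample arrays (4.61 to 5.18). Its difference was -0.37 without ample replicate 4, its highest array. Further negative differences were those of NRPB12, an RNA polymerase subunit (-0.72), AT4G10480, a nascent polypeptide-associated complex subunit (-0.51), and AT3G49100, a signal recognition particle subunit (-0.64). At midnight under elevated CO2 NRPB12 had 0.14, AT4G10480 -0.25 and AT3G49100 -0.05. The rest were AT1G05320 (-0.77, and -0.64 without ample replicate 4), AT5G12980 (-0.67), AT3G56430 (-0.60), AT2G45730 (-0.50), AT3G11560 (-0.48) and AT3G57890 (-0.40). AT1G68670 is described above. The arrays overlapped in AT3G62930, NRPB12, AT3G49100 and AT3G11560 and did not in the other 22. Over all tested probe sets 324 of 12772 (2.54%) had no overlap in either direction. The genes of this group were taken for their small p in the same arrays, which favours separation. The lack of overlap in the 22 is therefore no evidence beyond those p-values.

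Most pathway lists held few measured genes: of 524 listed genes 96 were measured. CC-type glutaredoxins are small plant-specific redox proteins. Of 9 measured, 8 lay below 0 (median -0.41) and none was called. Among all tested probe sets 6782 of 12772 lay below 0, the share to set beside the list counts of this comparison here and below. AT3G62930 read 0.32, -0.22, -1.76, 0.09 and -0.20 at ample and -1.86, -2.19, -1.12 and -1.75 at limiting nitrogen. AT4G15680 had the most negative difference (-1.74, limma adjusted p = 0.417), with 0.77, -2.94, -2.77, -1.38 and -1.65 at ample and -3.35, -3.01, -1.91 and -5.08 at limiting nitrogen. Ample replicate 1 was the highest of the 9 arrays here and in the neighbouring AT4G15660 (0.72), AT4G15690 (0.04) and AT4G15700 (0.35), which are close paralogs, and whether their probe sets share signal was not tested. AT1G06830 alone was above 0 (0.59).

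Leaf senescence had 3 measured genes of 16, GAMMA-VPE (1.12), the transcription factor WRKY53 (1.00) and SAG101 (-0.18), with none called. WRKY53 read -1.22, 0.33, -1.53, -1.14 and -0.24 at ample and 0.49, 0.30, 0.54 and -0.38 at limiting nitrogen, and the groups overlapped. Autophagy, which recycles cytoplasm and chloroplast protein, had 10 measured genes, 7 of them below 0 (median -0.08), with differences between -0.39 (ATG8B) and 0.35 (ATG3). None was called. Without ample replicate 4 the median was -0.02 with 6 of 10 below 0, ATG8B had -0.18 and ATG3 0.19. Of 3 amino acid transporters AT1G25530 had 0.85, AT1G08230 (GAT1) -0.20 and AT2G41190 -0.98. Without ample replicate 4 GAT1 had 0.02 and SAG101 -0.09. In AT2G41190 the limiting arrays (-2.46 to -1.95) lay below the ample arrays (-1.85 to -0.51) without a call (limma adjusted p = 0.424).

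In photosynthesis the differences were small. Photosystem and light-harvesting genes had 6 of 8 below 0 (median -0.15), from PSAN at -0.47 to LHCB4.3 at 0.12. Chlorophyll synthesis had 6 of 8 below 0 (median -0.09), from HEMB1 at -0.20 to PORB, the protochlorophyllide reductase, at 0.21. The Calvin-Benson cycle had 3 of 3 below 0 (median -0.08) and photorespiration 4 of 4 (median -0.15). Without ample replicate 4 the last 2 medians were -0.01 and -0.01, with 2 of 3 and 2 of 4 below 0. HEMB1 then had -0.12, LHCB4.3 0.26 and the chlorophyll list a median of -0.11. That array was the highest of the 9 for SBPASE, RCA, PRK and HPR, the peroxisomal hydroxypyruvate reductase. None of these 4 lists held a called gene.

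In respiration, 11 of 16 genes of the TCA cycle and pyruvate dehydrogenase lay below 0 (median -0.18), and none was called. SDH2-2, an iron-sulfur subunit of succinate dehydrogenase, had -0.46, and MAB1, the E1 beta subunit of mitochondrial pyruvate dehydrogenase, had -0.24. For MAB1 the highest limiting array (2.838) lay only just below the lowest ample array (2.839), with limma adjusted p = 0.445. Of all tested probe sets 1.53% had limiting arrays entirely below the ample arrays. The alternative NADH dehydrogenases NDB1, NDB2 and NDC1 lay between -0.21 and 0.09. Starch genes other than APL3 lay between -0.33 (DPE1) and 0.25 (AMY1), so 2 of 5 were above 0 and none was called. Sugar-repressed genes had AT3G15450 at -0.68, MCCA at -0.10 and AKINBETA1 at 0.02. The cytokinin response regulators ARR15 (1.04) and RR16 (0.02), the flavonoid glucosyltransferase UGT78D2 (-0.07) and 3 glucosinolate genes (-0.06 to 0.20) were not called either. Without ample replicate 4 the differences were -0.14 for NDB1, -0.14 for DPE1, 0.04 for MCCA, -0.09 for AKINBETA1 and 0.32 for RR16, and the starch list median went from -0.03 to 0.05.

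**Figure D3:**
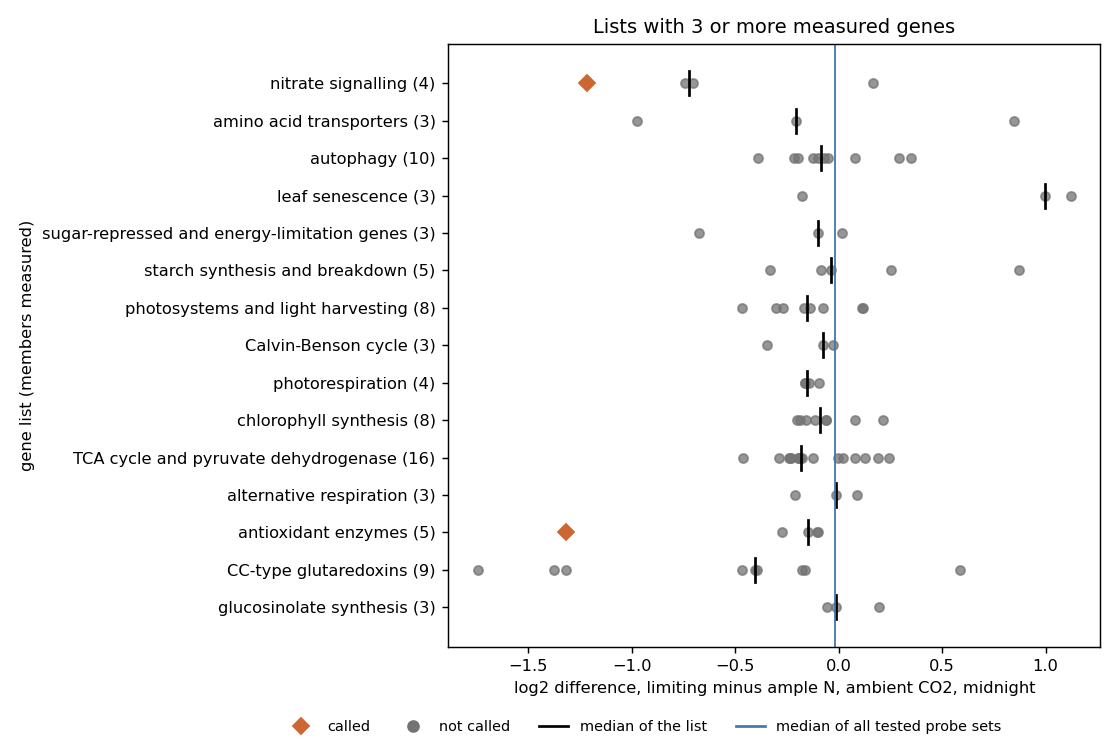
Log2 difference between limiting and ample nitrogen (horizontal axis) for each measured gene of the lists with 3 or more measured members, with the number measured in brackets, black lines at list medians and a blue line at the median of all tested probe sets (-0.02). Diamonds mark the called genes, AT4G37180 in nitrate signalling and SAPX among antioxidant enzymes.

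Some genes outside the lists were looked up after their values were seen. QQS, an Arabidopsis-specific gene known to influence the split of carbon and nitrogen between starch and protein, read 2.27, 1.65, 2.67, 2.55 and 3.51 at ample and 0.85, 0.65, 2.21 and 2.16 at limiting nitrogen. The groups overlapped, and the difference of -1.06 was not called (limma adjusted p = 0.347). PGM (locus AT1G78050, with no role stated here) had -0.81, COR15B, a cold-responsive chloroplast protein, -0.82, and SIR, the sulfite reductase, -0.53, all without a call. Without ample replicate 4 they had -0.685, -0.585 and -0.452.

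The called probe sets were then compared between the nitrogen groups in other conditions. Those arrays gave none of the ambient midnight means, but they entered the estimate of spread that all groups share. At midnight under elevated CO2 all 44 differed in the same direction, 36 of them at an unadjusted p under 0.05 and 11 past the adjusted threshold. Over all probe sets the same direction was found in 62.1%, and 6.87% and 0.164% passed those thresholds. The named genes among the 11 were AT1G68600, AT5G26200 and SAPX. The 11 are 25% of the 44 and 52.4% of the 21 probe sets called under elevated CO2, and all 21 had the same direction at ambient CO2. That count of 21 was 1 without elevated limiting replicate 4, 11 and 12 without its replicates 1 and 3, and 7, 6, 12 and 5 without elevated ample replicates 1, 2, 4 and 5.

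The difference under elevated CO2 was the smaller in 41 of the 44, which were chosen on their ambient values. AT1G68600 differed by 1.61 (SE 0.34, limma adjusted p = 0.0411) and SAPX by -1.21 (SE 0.24, adjusted p = 0.0379). AT5G26200 differed by -1.58 (SE 0.26, adjusted p = 0.00444) and was one of the 3 with a larger size there. AT4G37180 differed by -0.65 and AT4G34950 by 0.13, neither called. The CO2 by N interaction, which tests whether the nitrogen effect at midnight differs between CO2 levels, gave 0 calls in limma (0%) and 347 at an unadjusted p under 0.05 (2.72%). PSAN, not called at ambient CO2, differed by -0.77 under elevated CO2 (limma adjusted p = 0.00425), an interaction of -0.30 that was not called.

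At midday under ambient CO2, 35 of the 44 had the same direction and 9 the opposite one. At an unadjusted p under 0.05 there were 13 in the same direction and 1 in the opposite one, and none passed the adjusted threshold in limma. Over all probe sets the same direction was found in 52.2%, with 3.6% past the unadjusted and 0.00783% past the adjusted threshold. The median of the 25 lower probe sets was -1.003 at midnight and -0.23 at midday, and that of the 19 higher ones was 0.94 and 0.26. The 44 were chosen on their midnight values, which favours smaller differences elsewhere. AT1G68600 (1.75, limma adjusted p = 0.0761), AT2G39920 (1.26, adjusted p = 0.0573) and AT4G34950 (1.02, adjusted p = 0.0573) had the largest midday differences of the 14 named genes. SAPX had 0.14 and CDI 0.05. The 1 gene called at midday, AT2G16660, a predicted transporter of the major facilitator superfamily, differed by 2.56 there and by 1.00 at midnight (adjusted p = 0.197). The midday count was 2 without limiting midday replicate 2 or 4.

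**Figure D4:**
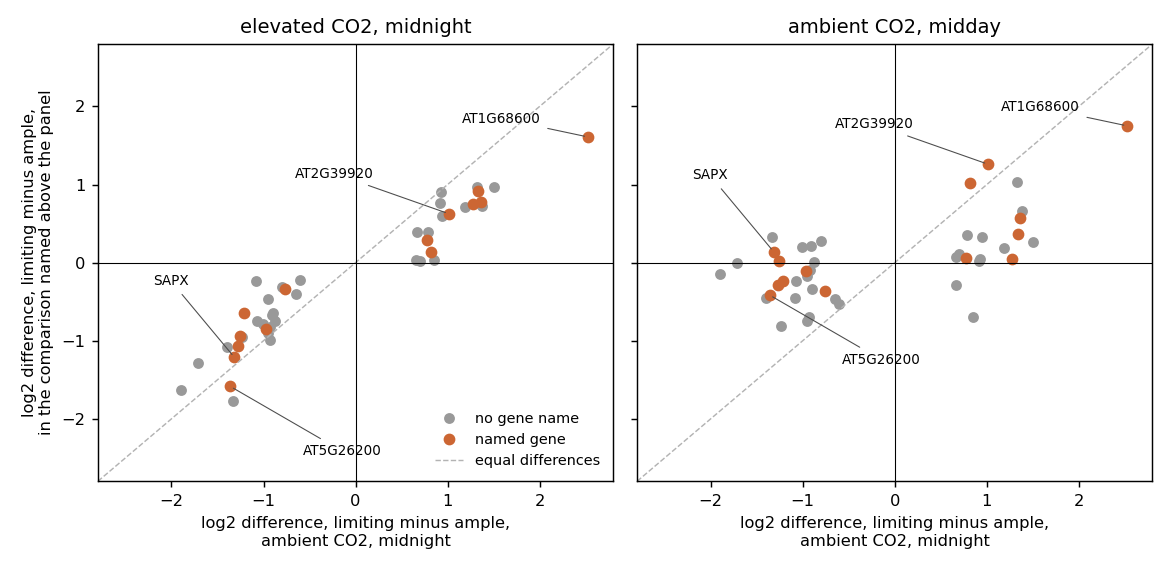
Log2 difference between limiting and ample nitrogen of the 44 probe sets called at ambient CO2 and midnight (horizontal axis) against the difference under elevated CO2 at midnight (left) and under ambient CO2 at midday (right), with 1 point per probe set and a dashed line at equal differences. All 44 keep their direction on the left and 35 on the right.

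The N by time interaction at ambient CO2, midday minus midnight, called 1 probe set (0.00783%), with 688 at an unadjusted p under 0.05 (5.39%). It was 265897_at, which has no gene name here. At midnight it read -1.87, -2.08, -1.47, -2.05 and -2.05 at ample and -0.95, -1.35, -0.78 and -1.12 at limiting nitrogen, a difference of 0.85. The midday means were -0.94 ± 0.29 (SD, n = 4) and -1.64 ± 0.37 (SD, n = 4), a difference of -0.69. The interaction was -1.55 (SE 0.26, limma adjusted p = 0.0253). The count of 1 fell to 0 without any one of ample midnight replicates 1, 2, 4 and 5, limiting midnight replicates 1, 3 and 4, ample midday replicates 1 and 2, or limiting midday replicates 1, 2 and 3. It was 2 without ample midday replicate 4. Midday and midnight samples may also differ in handling, which the labels do not describe.

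Levels of several genes were read in all 8 groups. At ambient CO2 and midday AT1G68600 averaged 0.88 ± 0.36 (SD, n = 4) with ample and 2.63 ± 0.47 (SD, n = 4) with limiting nitrogen. In elevated CO2 its midnight means were -0.33 ± 0.59 (SD, n = 5) with ample and 1.28 ± 0.51 (SD, n = 4) with limiting nitrogen. Its midday means there were 1.06 ± 0.91 (SD, n = 3) and 3.36 ± 0.44 (SD, n = 4). The limiting mean was the higher of each pair.

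SAPX was between 1.44 and 1.70 on average in all 4 midday groups and both ample midnight groups, and 0.29 ± 0.43 (SD, n = 4) at ambient and 0.35 ± 0.20 (SD, n = 4) at elevated CO2 in limiting midnight leaves. Its N by time interaction at ambient CO2 was 1.46 (limma adjusted p = 0.31). AT4G37180 was at -1.30 ± 0.36 (SD, n = 4) in limiting midnight leaves at ambient CO2 and at -0.78 ± 0.27 (SD, n = 4) at elevated CO2, while the 4 midday means ran from 0.08 to 0.54. AT1G25550 was at 2.51 ± 0.29 (SD, n = 5) in ample and 1.81 ± 0.11 (SD, n = 4) in limiting midnight leaves, and between -0.18 and 0.48 on average at midday.

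APL3 was at -1.06 ± 0.38 (SD, n = 5) in ample and -0.19 ± 0.28 (SD, n = 4) in limiting midnight leaves at ambient CO2, and the elevated CO2 means were -1.04 ± 0.47 (SD, n = 5) and -0.20 ± 0.38 (SD, n = 4). At midday under ambient CO2 the nitrogen groups were at 0.56 and 0.60, and under elevated CO2 at 0.99 (ample) and 1.28 (limiting). The N by time interaction of APL3 at ambient CO2 was -0.84 and was not called (limma adjusted p = 0.841). GAMMA-VPE reached 3.16 ± 0.06 (SD, n = 4) in limiting midnight leaves at ambient CO2 against 2.04 ± 0.65 (SD, n = 5) at ample nitrogen. Its elevated CO2 means at midnight were 3.20 ± 0.30 (SD, n = 4) with limiting and 2.51 ± 0.27 (SD, n = 5) with ample nitrogen. At midday GAMMA-VPE averaged 2.16 with limiting and 1.77 with ample nitrogen at ambient CO2. Under elevated CO2 the midday means were 3.45 ± 0.74 (SD, n = 4) and 2.01 ± 0.80 (SD, n = 3).

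**Figure D5:**
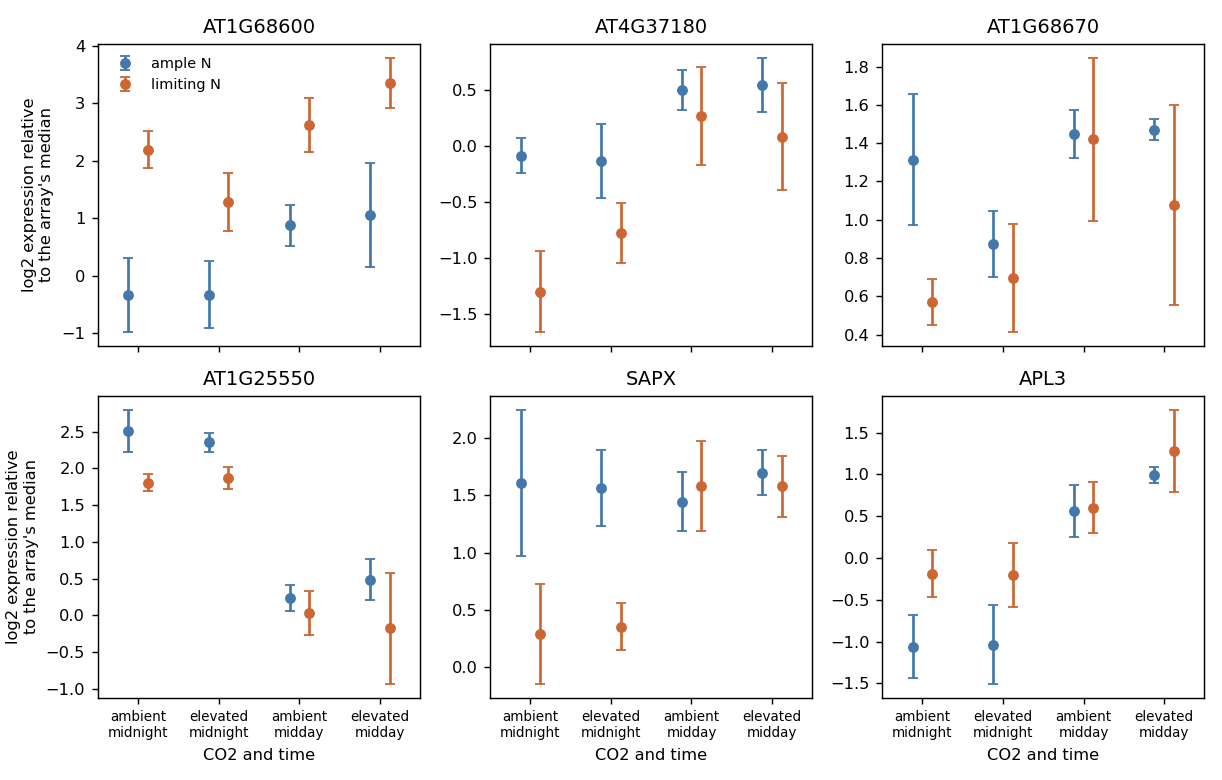
Mean log2 expression relative to the array's median, with bars of 1 SD over 3 to 5 arrays, for 6 genes in the 8 groups by CO2 and time; the vertical axis has its own range in each panel. AT1G68600 is higher under limiting nitrogen in all 4 pairs, while the nitrogen means of SAPX and APL3 lie apart at midnight and close together at midday at ambient CO2. The N by time interaction was not called for SAPX or APL3.

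As lists, photosystem genes had a median of -0.15 at midnight under ambient CO2 (6 of 8 below 0), -0.44 under elevated CO2 (7 of 8) and 0.03 at midday (3 of 8). Chlorophyll synthesis had -0.09, -0.28 (8 of 8) and 0.11 (1 of 8). The CC-type glutaredoxins had -0.41, -0.58 (8 of 9) and 0.16 (4 of 9), and the TCA cycle list -0.18, -0.03 (9 of 16) and 0.08 (3 of 16). The medians of all tested probe sets were -0.02, -0.02 and 0.01.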

How the data were processed

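Leaf RNA was measured on 1-colour Affymetrix arrays with biotin-labelled 3′ IVT targets, per the labels' protocols. The authors deposited log2 values (-8.13 to 7.44) with each array's median at 0. How probes were summarised, corrected for background and filtered is not given in the sources used here. Centring on the median hides a change shared by most genes. Of 12826 probe sets 54 controls were left out. By the platform annotation, updated by gene identifier for 6877 with TAIR10.1 names, 6898 have 1 gene, 272 several and 5602 none. limma 3.58.1 in R 4.3.3 fitted 8 group means to all 33 arrays with no block, giving the nitrogen effects and their interactions with CO2 and time. All adjusted p-values are limma's, Benjamini-Hochberg, with calls under 0.05. The fit was tested on simulated data. Alternatives were fewer arrays, each array left out, a replicate block, array weights, the 3′ to 5′ ratio as a covariate, quantile normalization, leaving out the 30% dimmest probe sets, trend and robust eBayes, and a 1.5-fold minimum. The text names every called single-gene probe set, those with the next smallest p up to 40 genes, and up to 4 members of each list with the smallest p, plus genes stated to be chosen later; other list members appear in ranges. The comparison, its genes and its lists were chosen with earlier results of these data known. Of 29 lists 6 had no measured member, those of phosphate starvation, the circadian clock and markers of root, flower, xylem and epidermis. The number of arrays limits the precision.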

Additional observations from a re-analysis of the deposited data

Results flagged for a closer look

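Array values that stood apart from their group, by the gap to the nearest array over the group's range at the 95% level, were looked for in 214 groups of arrays of 106 named genes and probe sets and in the 3′ to 5′ ratio. Chance flags about 1 in 20 groups, and 20 were found. The mean log2 3′ to 5′ ratio of ample replicate 4 was 4.406, with the other ample arrays between 1.715 and 2.353. The same array stood apart in AT3G43670 (1.25), TCP15 (-2.128), AT1G05320 (0.842), PSAN (5.176) and PSBW (5.846). Ample replicate 3 stood apart in AT5G64550 (-0.684), AT5G26200 (-0.952), AT3G62930 (-1.76) and 250248_at (2.003), in each case toward the limiting group. Ample replicate 2 did so in UGT78D2 (-0.712).

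In the limiting group, replicate 1 stood apart in AT1G08230 (-2.482), HEMB1 (2.888), MCCA (-0.199) and AKINBETA1 (0.125). Limiting replicate 2 stood apart in PRK (5.385) and MAB1 (2.838), replicate 3 in AT5G12980 (-2.223) and NDC1 (-0.17), and replicate 4 in AT4G33960 (1.36). Probe set 265897_at was the 1 whose nitrogen effect differed between midday and midnight by the interaction test (-1.548, limma adjusted p = 0.0253).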

How the results depend on the processing

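The 44 calls became 3 with only the 9 compared arrays (2 of them among the 44), 23 with only the midnight arrays, and 15 to 59 when 1 array was left out: 15, 17 and 21 without limiting replicates 4, 3 and 1, and 29 without ample replicate 5. Settings other than these gave 31 to 50. For the other comparisons, the nitrogen effect at midnight under elevated CO2 (21) gave 0 with only its own arrays, 5 with only midnight arrays, 9 with a replicate block, 46 with array weights and 1 to 20 with 1 array left out. The midday effect (1) gave 109 with array weights, 6 with the 3′ to 5′ covariate, 5 without the 30% dimmest probe sets, 3 with trend and robust eBayes and 1 to 2 with 1 array left out. The N by time interaction (1) gave 7 with array weights, 0 with only its own arrays, only ambient arrays, the covariate or the filter, and 0 to 2 with 1 array left out. The CO2 by N interaction gave 0 in every setting. The cause of these shifts was not tested, except that fewer arrays leave fewer residual degrees of freedom. A replicate block gave 31 calls, 28 of them among the 44. Same-numbered arrays correlated at -0.155, 0.146, -0.221 and -0.08 in their deviations from the group means, and differently numbered ones between -0.228 and 0.199. So few values cannot decide whether the replicate numbers pair the samples, and the labels do not say. No named call changed direction, and 13 of the 14 were lost with only the compared arrays. AT1G68600 was called in 18 of 18 settings, AT4G37180 and AT5G45650 in 17 and AT4G34950 in 6. AT5G26200 and AT5G64550 were among the 30% dimmest probe sets, so the fit without those did not include them. The settings for the 2 comparison effects at elevated CO2 and at midday were added after seeing the data.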
